A study of Mus musculus with 4 samples.

Results

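The genes described here are the mouse dopamine receptors Drd1, Drd2, Drd3, Drd4 and Drd5 together with Ppp1r1b, which codes for the phosphatase inhibitor DARPP-32. They were taken by symbol from the gene names of the matrix, which gave 6 of 32287 features, and were followed across cell classes named from other markers. The data are single-nucleus RNA sequencing of medial prefrontal cortex from C57BL/6J mice aged 9 weeks, dissected 24 hours after an injection of DOI, a psychedelic agonist of serotonin receptors, or of saline. Each treatment group held 2 samples, from 1 female and 1 male. Tissue of all 4 samples, saline included, carried scFLARE2, which marks cells active during a light pulse, and the reporter TRE-mCherry-p2a-bReaChES. The labels used here do not give the promoter or the delivery of these constructs, nor whether a sample pooled animals.

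The matrix pools all samples. Barcode endings separate 4 libraries, called libraries 1 to 4, without tying any of them to a sample. The matrix was therefore treated as 1 sample, and neither the treatments nor the sexes were compared. Libraries are not known replicates here, intervals cover counting error only, and no p-value is given. After filtering, 12981 of 22402 barcodes were kept, with a median of 8892 UMIs (unique molecular identifiers, each 1 captured RNA molecule). By library, 1573 to 4187 nuclei were kept, with medians between 7290 and 10314 UMIs. In the kept nuclei, 17 barcode sequences occurred in more than 1 library, on 34 barcodes.

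Dopamine acts through G-protein-coupled receptors of 2 families. The D1-like receptors, Drd1 and Drd5, couple to Gs and, in striatum, Golf, and raise cyclic AMP, while the D2-like receptors, Drd2, Drd3 and Drd4, couple to Gi and Go and lower it. In the striatum the direct-pathway medium spiny neurons carry Drd1 and the indirect-pathway ones Drd2, and both hold DARPP-32, which inhibits protein phosphatase 1 once protein kinase A has phosphorylated it. Prefrontal cortex receives dopamine from the ventral tegmental area, and its receptors are sparser than in striatum.

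Drd1 lies on chromosome 13 (mm10, chr13:54051183-54055705, minus strand) and Drd2 on chromosome 9 (chr9:49340627-49408177, plus strand), in the GENCODE M21 annotation. The sequence just upstream of these receptors is shown because their levels separated the medium spiny subtypes. It was taken from the RefSeq table of GRCm38.p6, 5′ to 3′ on the gene's strand, with capitals marking GC boxes (GGGCGG or CCGCCC). The RefSeq start of Drd2 lies upstream of the GENCODE start.
Drd1, chr13:54055706-54055908, minus strand: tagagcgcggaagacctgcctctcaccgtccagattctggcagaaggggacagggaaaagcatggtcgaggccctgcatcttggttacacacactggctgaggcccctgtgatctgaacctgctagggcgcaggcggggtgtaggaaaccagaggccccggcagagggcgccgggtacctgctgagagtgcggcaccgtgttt
Drd2, chr9:49340153-49340402, plus strand: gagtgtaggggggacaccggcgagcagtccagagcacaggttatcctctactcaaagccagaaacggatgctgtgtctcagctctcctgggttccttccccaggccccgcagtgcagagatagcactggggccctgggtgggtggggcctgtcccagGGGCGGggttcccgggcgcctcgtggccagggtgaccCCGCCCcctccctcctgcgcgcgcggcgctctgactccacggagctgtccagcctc

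The Drd2 stretch of 250 bases held 2 GC boxes. The Drd1 stretch held none in the 203 bases left of 250 after those inside the annotated gene were taken out. The shares of windows below are for 250 bases. Of 32851 windows of 250 bases in the table, 32.7% held GGGCGG on either strand. Neither stretch held the letters TATAAA (12.4% of windows) or TGACG, the core of a cyclic AMP response element (17.8% of windows), on either strand. GC content was 62.6% for Drd1 and 68.8% for Drd2. These matches describe letters in the windows and are not binding sites.

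Drd3 lies at chr16:43754026-43822932, Drd4 at chr7:141292006-141296464, Drd5 at chr5:38319367-38322518 and Ppp1r1b at chr11:98348404-98357796, each on the plus strand of mm10. Ppp1r1b overlaps 1700003D09Rik on the opposite strand over 7079 bases, and Drd5 overlaps the antisense gene Gm26560 over 1531 bases. Whether the counting used strand is not given in the sources used here, so reads of these pairs may not be told apart. The overlapping genes had 354 and 17 UMIs over all barcodes.

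Clusters were named from marker lists that hold none of the 6 genes, and the 6 genes were kept out of the clustering. Of 24 clusters, 18 fell into 17 named classes and 6 stayed unnamed. A name means resemblance to a class, so each name below is to be read with the suffix "-like". The medium spiny class, typical of striatum and not of cortex, held 335 nuclei, of which 224 were in library 1, 78 in library 2, 32 in library 3 and 1 in library 4. Its defining markers were present: Rgs9 was at 912 CPM (counts per 1000000 UMIs) against 33.9 CPM in all other nuclei, Rarb at 1617 against 23.4 CPM, and Adora2a at 44.9 against 0.4 CPM. The L6b class, the deepest excitatory cells of cortex, held 190 nuclei, with Ccn2 at 152 against 6.4 CPM and Cplx3 at 31.3 against 1.7 CPM. The name L5 IT, given to cluster 4, is weak: it met the naming rule with 3 markers, but Tmem163 and Pld5, also L5 IT markers, were at 28.5 and 10.6 CPM there against 62.4 and 31.9 CPM in all other nuclei, and no L5 IT marker was among its 10 leading genes. It is called cluster 4 below. The name L6 IT, given to cluster 10, has similar limits. It also met the rule with 3 markers, and none of its markers was among its 10 leading genes. Ntng2, from the second list (L6 Car3/claustrum), was among them. Oprk1 was at 22.2 against 1.78 CPM in all other nuclei. Col18a1 and Fst, also L6 IT markers, were at 1.01 and 1.09 CPM against 1.80 and 1.70 CPM. The name L6 IT is kept below.

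Over all kept nuclei, 1011 UMIs were of Drd1, 772 of Ppp1r1b, 514 of Drd2, 91 of Drd3, 77 of Drd5 and 8 of Drd4. The medium spiny class held 2.05% of all UMIs, but 75.7% of those of Drd2, 85.7% of those of Drd3, 18.4% of those of Ppp1r1b and 10.9% of those of Drd1. Cortical excitatory nuclei held 79.0% of all UMIs and 72.0% of those of Drd1, 81.8% of those of Drd5 and 64.6% of those of Ppp1r1b. To be called higher or lower between classes, a gene needed 100 or more UMIs over both sides, a difference of 2-fold or more, and the same direction in every library with nuclei on both sides. This is a rule of size and not a test. Drd3, Drd4 and Drd5 could not reach 100 UMIs.

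Drd1, the main D1-like receptor, reached its highest cortical level in L6b nuclei. There it stood at 42.9, 39.7, 36.4 and 20.5 CPM in libraries 1 to 4, and at 33.4 CPM over all libraries (95% counting interval 26.5 to 41.5, 80 UMIs). In the other excitatory classes together, no class was above 11.2 CPM. No library of any other excitatory class was above 14.0 CPM, so the L6b libraries did not overlap theirs. Drd1 was 5.06-fold higher in L6b than in the other excitatory classes (log2 ratio 2.34, interval 1.98 to 2.68) and higher in 4 of 4 libraries, which met the calling rule, as 2.99% of the 15389 genes tested did in that direction. After thinning each nucleus to 1500 UMIs the level was 52.6 CPM and the log2 ratio 3.09, with too few UMIs for the call. Summed medium spiny markers were low in L6b nuclei, at 93.1 CPM (24.3 to 119 CPM by library, 3 of 13 markers at 0) against 4854 CPM in the medium spiny class.

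In single L6b nuclei, 70 of 190 (36.8%) had a Drd1 UMI, at a median depth of 11736 UMIs. Glia here are the astrocyte, oligodendrocyte, oligodendrocyte precursor and committed precursor classes, without the unnamed clusters. With a median of 3259.5 UMIs, glia had a Drd1 UMI in 34 of 1956 nuclei (1.74%). After thinning each nucleus to 1500 UMIs the shares were 7.37% in L6b and 0.949% in glia, so the L6b share stayed above the glial one. The L6b share was 44.2% without library 4, the library with the lowest L6b level.

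**Figure D1:**
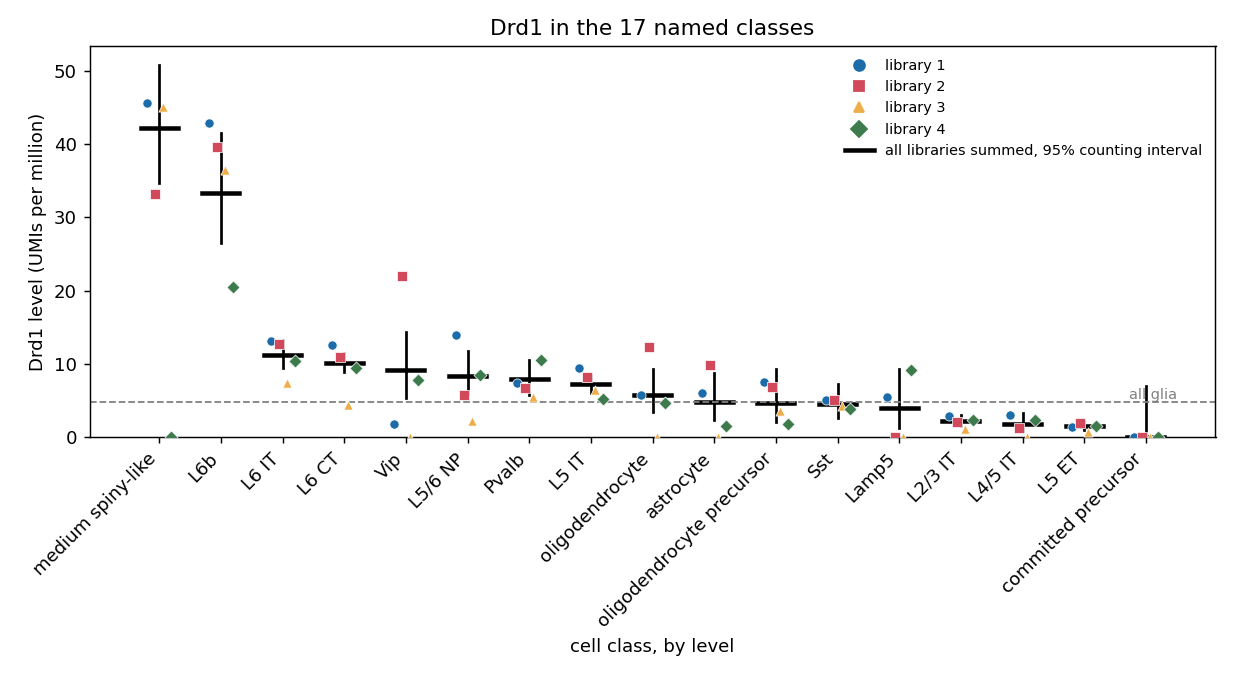
Drd1 level (CPM, y axis) in each of the 17 named classes (x axis, by level); points are the 4 libraries, black bars the libraries summed with their 95% counting interval, and the dashed line all glia; cluster 4 is drawn under its name L5 IT. The medium spiny and L6b classes stand at 42.2 and 33.4 CPM, and every other class is at 11.2 CPM or below.

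The other deep-layer classes followed at lower levels. L6 IT nuclei, which project within the cortex, had Drd1 at 13.1, 12.8, 7.40 and 10.4 CPM in libraries 1 to 4. L6 CT nuclei, which project to the thalamus, had it at 12.6, 10.9, 4.37 and 9.49 CPM. Both were higher than the other excitatory classes in 4 of 4 libraries, but by less than 2-fold, and neither was called (log2 ratio 0.76, interval 0.48 to 1.02, for L6 IT and 0.70, interval 0.48 to 0.92, for L6 CT). With a mitochondrial limit of 1% in place of 5%, L6 IT was called, at a log2 ratio of 1.15. At the main limit 1.56% of genes were called higher in L6 IT. L5/6 NP nuclei were at 8.41 CPM and cluster 4 at 7.20 CPM.

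Upper-layer and L5 ET nuclei had the least Drd1 among cortical neurons. In L2/3 IT nuclei it stood at 2.87, 2.02, 1.06 and 2.32 CPM in libraries 1 to 4. In L5 ET nuclei, which project below the cortex, it stood at 1.43, 1.86, 0.695 and 1.51 CPM. Both were called lower than the other excitatory classes, L2/3 IT with a log2 ratio of -1.93 (interval -2.48 to -1.44) and L5 ET with one of -2.46 (interval -3.14 to -1.85). In those comparisons 5.19% and 6.68% of genes were called lower.

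L4/5 IT nuclei had only 9 Drd1 UMIs, at 3.0, 1.22, 0 and 2.33 CPM in libraries 1 to 4. The class was called lower (log2 ratio -2.11, interval -3.25 to -1.18), where 7.03% of genes were. That call was lost with a mitochondrial limit of 20% (-0.46), with doublets kept (-0.61) and with coarser clusters (-0.34), settings in which 1618 to 1806 nuclei were named L4/5 IT and none L5 IT. The glial level of Drd1, 4.82 CPM, was above that of L2/3 IT, L4/5 IT and L5 ET nuclei. It was also above that of Sst (4.51 CPM) and Lamp5 (4.01 CPM) nuclei, but with overlapping intervals. Sst nuclei were above glia in libraries 3 and 4, at 4.31 and 3.79 CPM, and Lamp5 nuclei in library 4, at 9.15 CPM. In library 3 alone L2/3 IT nuclei, at 1.06 CPM, were above glia. Glia were shallower, and how much of these levels is background was not tested. By library, glia had 5.79, 9.61, 0.704 and 2.41 CPM.

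Ordered by level, the medium spiny class (42.2 CPM) was followed by L6b (33.4 CPM) with overlapping intervals. The step from L6b to L6 IT (11.2 CPM) was the only one between neighbours whose intervals did not overlap. From L6 IT down to the committed oligodendrocyte precursors, where 0 of 94 nuclei had a UMI (which allows a share of up to 3.19%), each class overlapped the next. Library 3 had the lowest Drd1 level in L2/3 IT, L4/5 IT, L5 ET, L5/6 NP, L6 CT and L6 IT nuclei, and over all excitatory nuclei (4.01 CPM against 9.40, 7.83 and 6.44 CPM in libraries 1, 2 and 4). What library 3 stands for among the samples cannot be told from its barcode ending.

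Excitatory and inhibitory neurons did not separate by Drd1. The levels were 7.24 and 6.71 CPM, a log2 ratio of 0.11 (interval -0.22 to 0.45), which was not called. Vip nuclei, interneurons that target other interneurons, were at 9.11 CPM, but 13 of their 18 UMIs came from library 2. Pvalb nuclei, which target cell bodies, were more even, at 7.37, 6.65, 5.48 and 10.5 CPM in libraries 1 to 4. Against glia, cortical neurons together had a log2 ratio of 0.58 (interval 0.09 to 1.11) and were higher in 3 of 4 libraries, the exception being library 2. Over all libraries 16% of genes were called higher and 21.1% lower in that comparison. Without library 2 the Drd1 ratio was 1.14 and was called.

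The L6 CT class joined 2 clusters that differed in Drd1. Cluster 2, of 1139 nuclei, had 7.69, 3.32, 2.84 and 6.26 CPM in libraries 1 to 4, and cluster 3, of 1321 nuclei, had 16.0, 14.6, 5.2 and 13 CPM. Cluster 3 was higher in each library, at 13.3 against 5.76 CPM over all. At the finer resolution, a cluster of 175 L6 CT nuclei led by Spag16 and Shisa6 held Drd1 at 20.3, 23.7, 14.9 and 22.3 CPM, with a UMI in 23.4% of its nuclei. The larger L6 CT clusters at that resolution, of 1085 and 1205 nuclei, were at 11.7 and 6.53 CPM. These clusters were chosen for mention after their values had been seen.

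**Figure D2:**
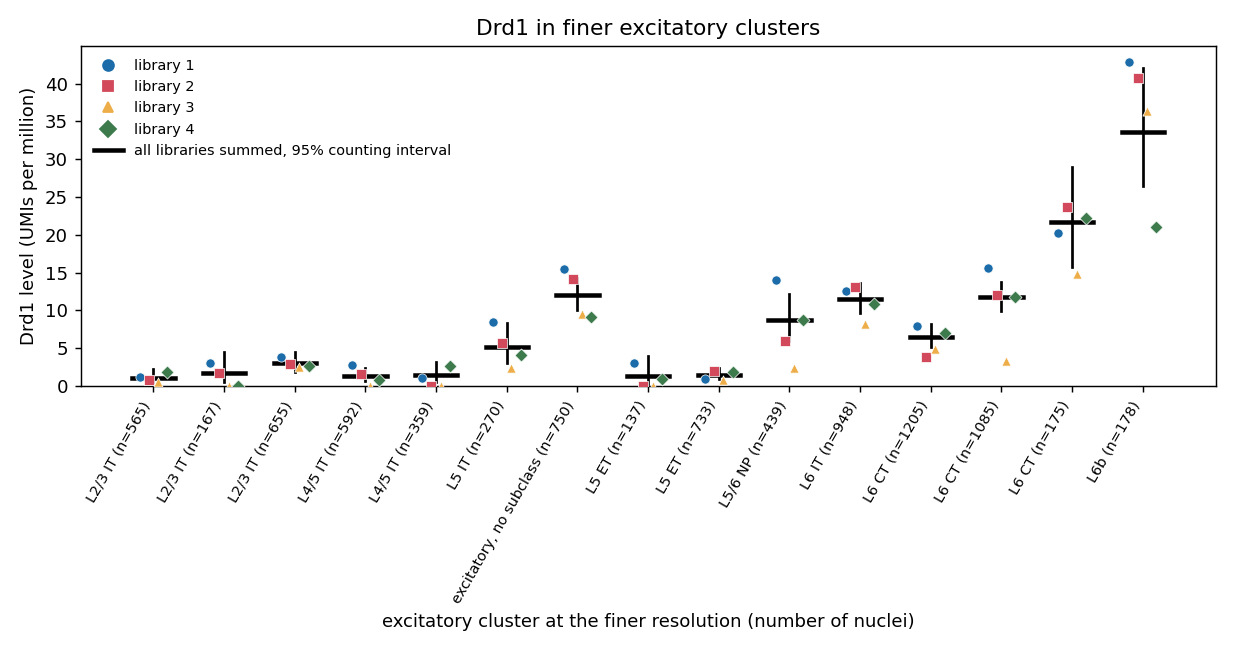
Drd1 level (CPM, y axis) in each excitatory cluster at the finer resolution (x axis, with the number of nuclei); points are libraries and black bars the libraries summed with their 95% counting interval. The L6b cluster of 178 nuclei is highest at 33.6 CPM, followed by the L6 CT cluster of 175 nuclei at 21.7 CPM.

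Drd5, the other D1-like receptor, was close to the limit of detection. L6 CT nuclei held 28 of its 77 UMIs, at 1.36, 1.24, 0.672 and 0.863 CPM in libraries 1 to 4. Over all libraries that was 1.07 CPM (interval 0.714 to 1.55), while glia stood at 0.826 CPM (interval 0.303 to 1.80) and all excitatory nuclei at 0.626 CPM. The neuronal levels were therefore not distinguishable from the glial level at this depth. In the medium spiny class only 2 UMIs were seen, both in library 1.

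Drd2, the main D2-like receptor and also the autoreceptor of dopamine neurons, was sparse in cortical neurons. Inhibitory nuclei had it at 2.45, 2.85, 2.74 and 2.46 CPM in libraries 1 to 4, and excitatory nuclei at 0.951, 0.630, 0.964 and 0.593 CPM. The libraries of the 2 groups did not overlap. Drd2 was 3.49-fold lower in excitatory nuclei (log2 ratio -1.80, interval -2.41 to -1.17; 75 against 33 UMIs) and was called, as 7.45% of 15798 genes tested were in that direction, with 9.24% called higher. The call rests on 108 UMIs: leaving out any of the libraries 1 to 4 brought the sum under 100, with ratios of -1.98 to -1.68. With a mitochondrial limit of 1% it was also lost, at -1.57.

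Sst nuclei, interneurons that target dendrites, held 23 of the 33 inhibitory UMIs. Their levels were 7.01, 6.10, 8.61 and 4.55 CPM in libraries 1 to 4, and 19 of 396 nuclei (4.80%) had a UMI, or 1.26% after thinning. Glia had a Drd2 UMI in 0.358% of nuclei, or 0.158% after thinning, and stood at 0.963 CPM (interval 0.387 to 1.99). Pvalb nuclei were at 0.528 CPM, Vip nuclei at 1.52 CPM and Lamp5 nuclei at 3.20 CPM, from 3, 3 and 4 UMIs. No comparison among inhibitory classes reached 100 UMIs for any of the 6 genes.

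Among excitatory classes Drd2 was highest in L6 IT nuclei (1.56 CPM, 20 UMIs) and cluster 4 (1.17 CPM, 23 UMIs), with intervals that overlapped the glial one. In L5 ET nuclei 6 of 13 UMIs came from library 3. None of 190 L6b nuclei had a Drd2 UMI, which allows a share of up to 1.58%. All excitatory nuclei had one in 0.796%, so a difference of L6b from them was not detectable at this depth.

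Drd3, a D2-like receptor known from the ventral striatum and the islands of Calleja, was found almost wholly outside the cortical classes. Of its 91 UMIs, 78 were in medium spiny nuclei and 3 in the 9608 cortical neurons. Glia had 0 UMIs in 1956 nuclei, which allows a share of up to 0.153%. The remaining 10 UMIs were in unnamed clusters. Drd4, a D2-like receptor studied mostly in prefrontal cortex, had 8 UMIs in all, spread singly or in pairs over 7 classes, and gives no order of classes at this depth.

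In the medium spiny class, Drd2 stood at 143, 160, 160 and 0 CPM in libraries 1 to 4, and Drd1 at 45.7, 33.3, 45.1 and 0 CPM. The 0 in library 4 is that of 1 nucleus. Over all libraries Drd2 was 157-fold higher than in cortical neurons (log2 ratio 7.29, interval 6.98 to 7.61) and Drd1 5.88-fold higher (2.56, interval 2.26 to 2.85). Neither met the rule of the same direction in 4 libraries because of that nucleus. Over libraries 1 to 3 both were called higher, at log2 ratios of 7.17 and 2.5, where 5.32% of genes were called higher and 16% lower.

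Drd3 reached 26.1, 51.4 and 10.0 CPM in the medium spiny nuclei of libraries 1 to 3, each above every cortical class in that library. At 78 against 3 UMIs the comparison stayed under the minimum. A Drd2 UMI was found in 128 of 335 medium spiny nuclei (38.2%, or 15.6% after thinning) and a Drd1 UMI in 84 (25.1%, or 6.29% after thinning). The median depth of the class was 6703 UMIs.

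Ppp1r1b was the member called in medium spiny nuclei over all 4 libraries. It stood at 57.4, 45.4, 57.6 and 79.0 CPM in libraries 1 to 4, the last from 1 nucleus, against 5.25, 3.84, 3.59 and 5.68 CPM in cortical neurons. The groups did not overlap. The level was 11.3-fold higher (log2 ratio 3.50, interval 3.22 to 3.77) and was called, as were 2.38% of genes in that direction, with 16.3% called lower, so 1 of the 3 members that could be tested met the rule. A Ppp1r1b UMI was seen in 110 of 335 nuclei (32.8%, or 8.98% after thinning), and in 2.30% of glia (1.05% after thinning).

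In cortex, Ppp1r1b was called higher in L6 CT nuclei. Levels there were 9.5, 6.06, 8.73 and 9.28 CPM in libraries 1 to 4, and other excitatory classes lay between 2.86 and 8.35 CPM. The difference was 2.27-fold (log2 ratio 1.19, interval 0.92 to 1.45), where 2.53% of genes were called higher. L6 CT was the excitatory class with the highest level, and L6b, at 8.31, 6.35, 0 and 11.4 CPM, overlapped it. The value of 0 came from 11 nuclei of library 3.

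The glial level of Ppp1r1b, 6.19 CPM, limits how far the cortical values can be read. Astrocytes were at 9.00 CPM, with 18.3 CPM in library 1 and 3.27 to 8.48 CPM in the others. The L6 CT interval of 7.40 to 9.68 CPM overlapped that of glia (4.52 to 8.29 CPM). The share of L6 CT nuclei with a UMI, 203 of 2460 (8.25%), was 1.27% after thinning, beside 1.05% in glia. L2/3 IT, L4/5 IT, cluster 4, L5 ET, L5/6 NP and L6 IT nuclei and all 4 interneuron classes were between 2.81 and 5.22 CPM, below glia. How much of these levels is background was not tested.

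**Figure D3:**
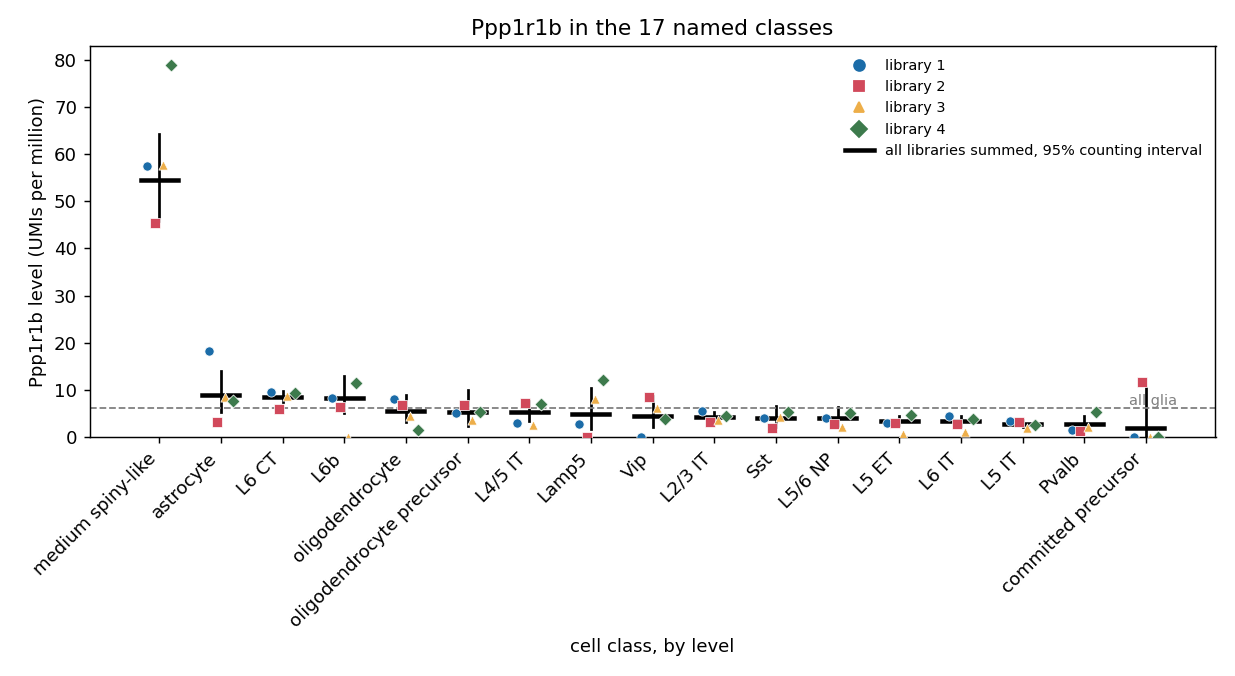
Ppp1r1b level (CPM, y axis) in each of the 17 named classes (x axis, by level); points are the 4 libraries, black bars the libraries summed with their 95% counting interval, and the dashed line all glia. The medium spiny class is at 54.5 CPM and every other class is at 9.00 CPM or below.

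Medium spiny nuclei were clustered again without the 6 genes and split by other markers, which gave 168 direct-type, 128 indirect-type and 21 eccentric nuclei, with 18 of no subtype. Library 4 had no indirect-type or eccentric nucleus. Drd2 stood at 353, 322 and 361 CPM in indirect-type nuclei of libraries 1 to 3, and at 3.68, 0 and 0 CPM in direct-type nuclei. It was 147-fold lower in direct-type nuclei (log2 ratio -7.20, interval -9.48 to -5.64; 3 against 320 UMIs) and was called, where 0.657% of 3502 genes were called lower and 1.09% higher. A Drd2 UMI was seen in 105 of 128 indirect-type nuclei (82.0%) and in 3 of 168 direct-type nuclei (1.79%).

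Drd1 had the opposite distribution. Direct-type nuclei of libraries 1 to 3 had 76.0, 69.5 and 87.4 CPM, and indirect-type nuclei 3.78, 0 and 0 CPM. With 96 against 2 UMIs the log2 ratio was 5.13 (interval 3.23 to 8.19), under the minimum of 100 UMIs and therefore not called. With a mitochondrial limit of 1%, which left 35 direct-type nuclei, the ratio was 2.23. A Drd1 UMI was seen in 74 of 168 direct-type nuclei (44.0%) and in 2 of 128 indirect-type nuclei (1.56%).

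Drd3 was seen mainly in direct-type nuclei, at 39.2, 104 and 21.9 CPM in libraries 1 to 3. Indirect-type nuclei had 11.3, 20.7 and 0 CPM. The log2 ratio was 2.06 (interval 1.12 to 3.13), from 63 against 11 UMIs, under the minimum. Library 2 had the highest Drd3 level in both subtypes, but the libraries drew unevenly on the subclusters. Library 2 had 21 of its 28 indirect-type nuclei in subcluster 4, and library 1 had 36 of 87, with Drd3 there at 29.8 and 29.3 CPM. Library 2 had 22 of its 36 direct-type nuclei in subcluster 3, and library 1 had 15 of 115, with Drd3 there at 103 and 82.2 CPM. The part of this in the library difference was not tested. All 11 indirect-type UMIs were in subcluster 4, led by Ankk1 and Slit2, at 29.1 CPM, while subcluster 1, led by Penk and Nts, had none in 60 nuclei, which allows a share of up to 5%. Among direct-type subclusters Drd3 ranged from 21.0 CPM in subcluster 5 to 95.3 CPM in subcluster 3, where Drd1 was at 68.2 and 75.5 CPM. Subcluster 3 was led by Lyz2, Zfp521, Gfra1, Aspn, Gpnmb and Lgals3. It was enriched for 3 direct-type markers, the fewest among the direct-type subclusters. Whether it holds direct-type nuclei only was not tested.

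Ppp1r1b did not separate the subtypes. Direct-type nuclei had 61.3, 65.6 and 76.5 CPM in libraries 1 to 3, and indirect-type nuclei 62.3, 28.9 and 45.9 CPM. The log2 ratio was 0.34 (interval -0.19 to 0.89) and the direction differed between libraries. Eccentric nuclei, a rarer medium spiny type, carried Drd2 at 180 and 390 CPM in libraries 1 and 2. They also had 5 Drd1 UMIs (39.7 CPM, interval 12.9 to 92.8) and 4 Ppp1r1b UMIs (31.8 CPM). Of 21 eccentric nuclei 3 had a Drd1 UMI and 11 a Drd2 UMI, and no nucleus had both.

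**Figure D4:**
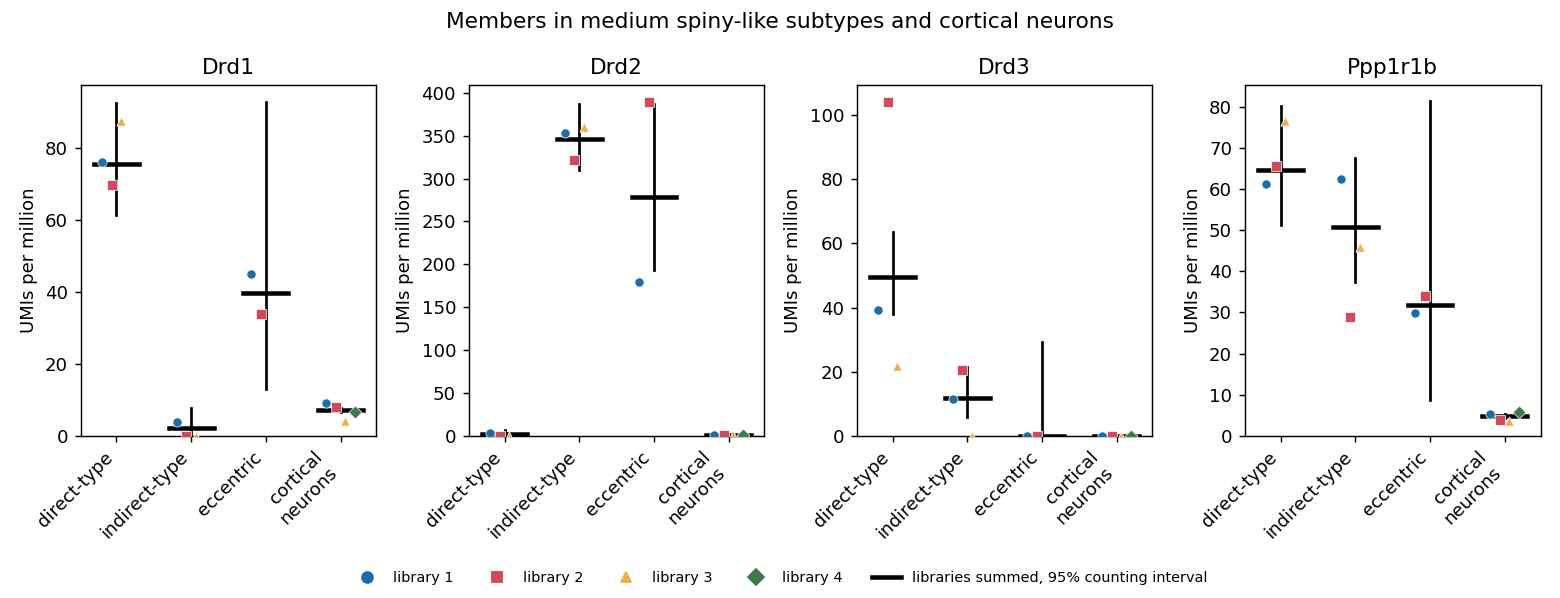
Level (CPM, y axis, a separate scale per panel) of Drd1, Drd2, Drd3 and Ppp1r1b in 3 medium spiny subtypes and in cortical neurons (x axis); points are libraries, black bars the libraries summed with their 95% counting interval, and the single medium spiny nucleus of library 4 has no point. Drd1 is at 75.5 CPM in direct-type and 2.16 CPM in indirect-type nuclei, and Drd2 at 2.36 and 346 CPM.

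Few medium spiny nuclei held UMIs of both main receptors. Drd1 was seen in 84 and Drd2 in 128 of 335 nuclei, and both were seen in 4, while 127 nuclei had neither. In direct-type nuclei Drd1 and Drd3 were seen together in 15, which was 20.3% of those with Drd1 and 35.7% of those with Drd3. Drd1 and Ppp1r1b were seen together in 29 direct-type nuclei, of 74 and 62 with each. In L6b nuclei 8 of the 20 with Ppp1r1b also had Drd1, and in L6 CT nuclei 25 of 203. Over all excitatory nuclei 652 had Drd1, 66 had Drd2 and 10 had both. Sparse counts miss most molecules, so these numbers set no share of cells that express both.

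The genes that act after the receptors were read from 6 lists of 66 genes, of which 64 were in the matrix. In medium spiny nuclei the list of protein kinase A subunits and phosphodiesterases had 6 of 14 genes called higher and 1 lower, with a median log2 ratio of 1.18 against -0.13 over all genes tested, of which 2.38% were called higher and 16.3% lower. Of 10 Gs, Golf and adenylyl cyclase genes, 4 were called higher and 1 lower, with a median of 0.01. Of 18 phosphatases, inhibitors and kinases around DARPP-32, 1 was called higher and none lower. None of 5 Gi and Go genes was called. Over libraries 1 to 3, 8, 4 and 4 genes of the first 3 of these lists were called higher, and 1, 3 and 0 lower, beside 5.32% and 16% of all genes.

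Gnal, the alpha subunit of Golf, was at 926 CPM in medium spiny nuclei and at 85.7 CPM in cortical neurons (log2 ratio 3.43). Gng7, the gamma subunit of the same protein, was at 412 against 20.5 CPM (4.33), and Adcy5, the main striatal adenylyl cyclase, at 538 against 39.2 CPM (3.78). Adcy2 was the gene called lower, at 59.5 against 548 CPM (-3.20).

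Among phosphodiesterases, which break down cyclic nucleotides, Pde7b was at 2334 against 110 CPM (log2 ratio 4.41) and Pde1b at 297 against 21.1 CPM (3.82). Prkar2b, a regulatory subunit of protein kinase A, was called higher at a log2 ratio of 1.61, and Pde4d was called lower at -2.65. Ppp3ca, a catalytic subunit of calcineurin, which removes the phosphate that activates DARPP-32, had a log2 ratio of 1.16. Grk3, a receptor kinase, was called lower at -3.53.

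**Figure D5:**
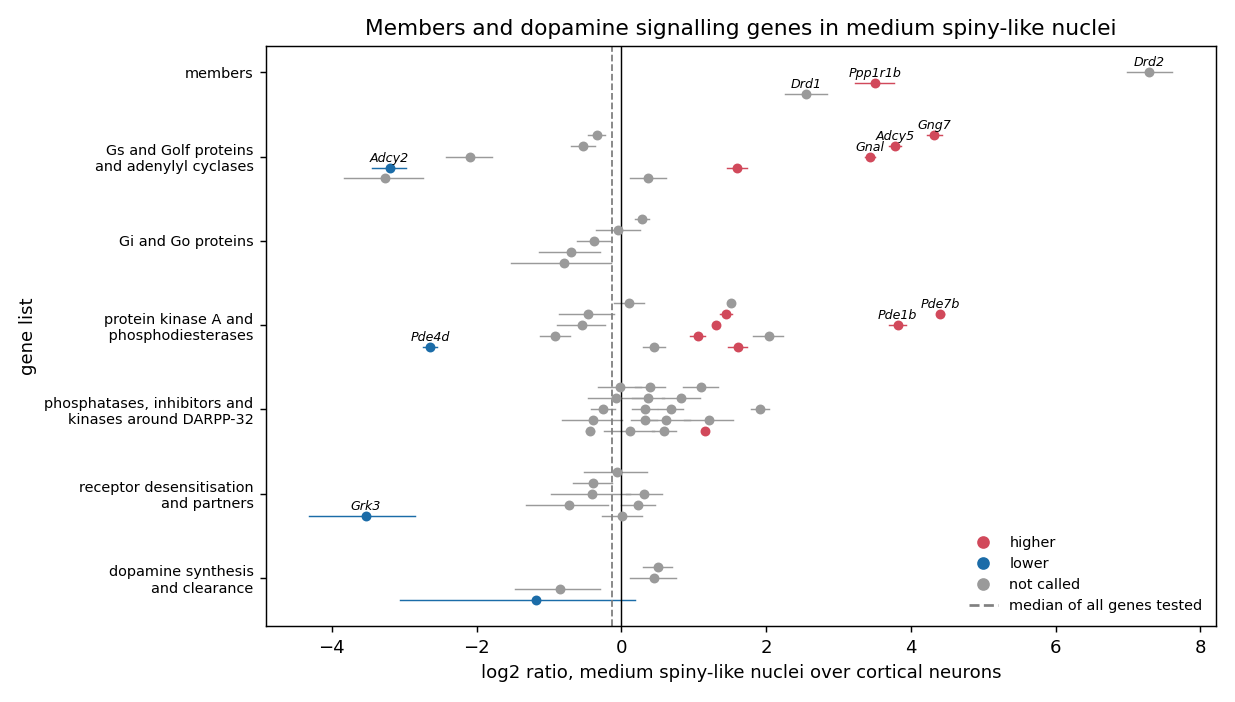
Log2 ratio of medium spiny nuclei over cortical neurons (x axis) for each tested gene of the members and the 6 signalling lists (y axis), with 95% counting intervals; red is called higher, blue called lower, grey not called, and the dashed line is the median of all genes tested. Drd2 and Drd1 are grey because the 1 medium spiny nucleus of library 4 had none of their UMIs.

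Between direct-type and indirect-type nuclei, 2 of 12 tested kinase and phosphodiesterase genes were called lower and none higher, and no gene of the other 5 lists (7, 2, 12, 3 and 1 tested) was called, beside 1.09% of all genes called higher and 0.657% lower. Both called genes were phosphodiesterases. Pde4b was at 1265 CPM in direct-type and 3192 CPM in indirect-type nuclei (log2 ratio -1.33), and Pde4d at 127 and 344 CPM (-1.44).

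In L6b nuclei, where Drd1 was highest in cortex, Gnal was called higher than in other excitatory classes, at 207 against 74.8 CPM (log2 ratio 1.47). Adcy8, a calcium-sensitive adenylyl cyclase, was called higher at 1.23 and Pde1b at 1.34, while Adcy9 (-1.09), Pde7b (-4.26), Pde8b (-1.06) and the kinase anchor Akap5 (-1.14) were called lower. Over all genes tested 2.99% were called higher and 10.9% lower in L6b. Maob, which breaks down dopamine, was called higher at 1.32. Median log2 ratios of the Gs and Golf list and of the kinase and phosphodiesterase list were 0.28 and -0.22, beside -0.06 over all genes tested.

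In L6 CT nuclei, where Ppp1r1b was called higher, no pathway gene was, and only 2.53% of all genes tested were. Adcy8 (log2 ratio -1.41), Gng7 (-1.41), Pde7b (-2.08) and Grk5 (-1.35) were called lower, as were 7.78% of all genes tested. L5 ET nuclei, low in Drd1, had Gng7 called higher at 2.71 (2.94% of genes were) and Gnal called lower at -1.5. Pde7b (-3.91), Pde1b (-1.92), Pde8b (-1.80) and the phosphatase inhibitor Ppp1r1a (-1.36) were also called lower there, as were 6.68% of genes. L2/3 IT nuclei, also low in Drd1, had Gnal called higher at 1.08 and Pde7b at 1.67 (3.62% of genes were), and Maob called lower at -1.12 (5.19% of genes were).

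Between excitatory and inhibitory nuclei 9.24% of all genes were called higher and 7.45% lower. Of 10 Gs, Golf and adenylyl cyclase genes, 2 were called higher and 2 lower. Of 14 kinase and phosphodiesterase genes 2 were called higher, and of 18 genes around DARPP-32 1 was called in each direction. The lists are short, and the called genes are given as values. Adcy9 and Adcy2 were called higher in excitatory nuclei (log2 ratios 1.53 and 1.20), and Adcy8 and Gng7 lower (-1.44 and -1.02). Pde4b (2.14), Pde7b (1.10) and Arpp21 (3.19), a phosphoprotein regulated by cyclic AMP, were called higher, and Ppp1cc, a catalytic subunit of protein phosphatase 1, lower (-1.26). None of the 5 Gi and Go genes was called.

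The TRE reporter gave a split of nuclei within classes. Classes with at least 50 nuclei holding a reporter UMI were L2/3 IT, cluster 4, L5 ET, L6 CT and L6 IT. None of the 6 genes was called between nuclei with and without it in any of these 5 classes. In the same order of classes, 0.198%, 0.0541%, 0.0495%, 0.0254% and 0.0807% of genes were called higher with the reporter, and 0.348%, 0.315%, 0.643%, 0.601% and 1.07% lower. For most pairs of member and class no call was possible, because the minimum of 100 UMIs was not reached. Drd1 reached that minimum in cluster 4, L6 CT and L6 IT nuclei, with 141, 264 and 144 UMIs. In L2/3 IT and L5 ET nuclei it had only 34 and 22 UMIs. Ppp1r1b reached the minimum in L6 CT nuclei only, and Drd2, Drd3, Drd4 and Drd5 in none of the 5 classes. In L6 IT nuclei Drd1 was at 18.8 CPM with the reporter and 10.6 CPM without (log2 ratio 0.83, interval 0.07 to 1.52; 20 against 124 UMIs) and higher in 4 of 4 libraries. Without library 1 that ratio was 1.01 and was called, and after thinning it was -0.48. In L6 CT nuclei the Drd1 log2 ratio was 0.09. Depth differed between the sides, with medians of 10825 against 10589 UMIs in L6 IT and 10892 against 9751 UMIs in L6 CT, and its part in these ratios was not tested.

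The genes whose level over the 17 named classes was most like that of each well-covered member were found by Pearson correlation of log2(CPM + 1), among genes with at least 500 UMIs. For Drd1 these were Sgf29 (r = 0.81), Efhc2 (0.80), Dph7 (0.79), Dtnb (0.77) and Cd47 (0.74). For Drd2 they were Smug1 (0.91), Nexn (0.90), Sh3rf2 (0.89), Ric8b (0.89) and Tmem263 (0.82), and for Ppp1r1b Tomm70a (0.88), Ndrg4 (0.85), S100pbp (0.84), Arel1 (0.83) and Rmnd5a (0.82). None is in the pathway lists. The classes share libraries and differ in depth, so these values are descriptions.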

How the data were processed

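The authors' deposited matrix holds UMI counts per gene and barcode. Cell Ranger 7.1.0 and mm10 are named in the submitters' processing notes, with no further parameters in the sources used here. All values in the text were computed from these deposited counts. Barcodes with under 500 genes, under 800 UMIs or over 5% mitochondrial UMIs were removed (9132, of which 8638 were over the mitochondrial limit), as were 289 with a Scrublet score above 0.25. Scrublet was run per library with 1 fixed score, since its automatic threshold marked 3 barcodes in library 4. The 2000 most variable genes, without the 6 genes, the pathway lists, sex-linked, mitochondrial and construct genes, gave 30 principal components, 15 neighbours and Leiden clusters at resolution 1 (scanpy 1.11.5, Python 3.11.15, seed 1). Medium spiny nuclei were clustered again with 1000 genes and 10 components. A class needed at least 3 markers at 2-fold or more and 10 CPM or more, and a clear lead over the second list.

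CPM is the UMI sum of a class per 1000000 of its UMIs. CPM intervals are exact Poisson, ratio intervals exact conditional binomial and share intervals exact binomial (Clopper-Pearson), all at 95%, and cover counting error only. The upper limit beside a count of 0 is 3 counts. Shares of nuclei were also computed after thinning to 1500 UMIs, which left out 247 shallower nuclei. Compared were excitatory with inhibitory nuclei, cortical neurons with glia, each subclass with the rest of its kind, medium spiny nuclei with cortical neurons, direct-type with indirect-type nuclei, and nuclei with and without reporter UMIs. Genes named are the 6 members, at most the 3 largest called ratios per pathway list and direction in a comparison, and the 5 most correlated genes of each member that has 500 UMIs or more (candidates had as many, and marker, mitochondrial, ribosomal and predicted genes were left out). Members, lists, markers and the calling rule were chosen with earlier results of these data known. The calling code was tested on simulated data. Alternatives were other mitochondrial, gene and doublet limits, coarser and finer clusters, thinning, the mean of each nucleus's own CPM, no UMI minimum, and leaving out each library.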

Additional observations from a re-analysis of the deposited data

Results flagged for a closer look

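Signal of the 6 genes outside the named classes was looked for because no comparison uses those barcodes. Drd1 stood at 14.5 CPM in unnamed cluster 14, of 580 nuclei with microglial and macrophage markers, above the 4.82 CPM of glia. At the finer resolution 74 nuclei, nearly all from that cluster and led by Nos1, Tacr1 and Ndst4, formed a cluster of their own, with Drd1 at 35.9, 16.6, 29.5 and 14.8 CPM in libraries 1 to 4 (18 UMIs, a UMI in 20.3% of nuclei). Cluster 14 as a whole held 31 Drd1 UMIs, and Nos1 is also an Sst interneuron marker in the naming lists. Drd1 was at 36.5 CPM and Drd3 also at 36.5 CPM in unnamed cluster 16, of 59 nuclei with ependymal and astrocyte markers, from 6 UMIs each, in 4 and 3 nuclei. Drd2 was at 7.36 CPM and Drd3 at 4.21 CPM in unnamed cluster 15, of 208 nuclei led by Top2a and Dlx6os1, from 7 UMIs in 3 nuclei and 4 UMIs in 2 nuclei. Ppp1r1b was at 28.8 CPM in unnamed cluster 20, of 178 nuclei led by globin genes and Flt1, from 13 UMIs, at 35.8, 42.2, 14.2 and 21.8 CPM in libraries 1 to 4.

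Barcodes removed by the filters held Ppp1r1b at 17.2 CPM, against 6.06 CPM in kept nuclei, and Drd5 at 1.92 CPM, against 0.604 CPM. Most of them were over the mitochondrial limit. The causes of these differences were not tested.

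The Drd2 level of 0 CPM in the medium spiny nuclei of library 4 stood far from the 143 to 160 CPM of the other libraries. It comes from 1 nucleus, which is direct-type, a subtype at 2.36 CPM of Drd2 over all libraries. That nucleus also had no Drd1 UMI, in a subtype at 75.5 CPM of Drd1, and the reason for the Drd2 value was not tested.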

How the results depend on the processing

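No direction of a called value reversed. Of 713 log2 ratios over all settings 641 counted as the same. For a called ratio that means the same call, and for an uncalled one no call and a value inside its main counting interval. Values inside the main counting interval were also found for 258 of 287 CPM values and 91 of 115 shares. Thinning to 1500 UMIs left too few UMIs for most calls: log2 ratios were then -2.12 for Drd2 in excitatory against inhibitory nuclei, 3.09, -1.20, -2.22 and -3.53 for Drd1 in L6b, L2/3 IT, L4/5 IT and L5 ET, 1.29 for Ppp1r1b in L6 CT, 3.56 for Ppp1r1b and 6.49 for Drd2 in medium spiny nuclei, -6.29 for Drd2 in direct-type against indirect-type nuclei, and -0.48 for Drd1 by reporter in L6 IT. Drd1 in L6b was then at 52.6 CPM. Thinned shares were 7.37% (Drd1, L6b), 6.29%, 15.6% and 8.98% (Drd1, Drd2 and Ppp1r1b, medium spiny), 1.26% (Drd2, Sst) and 1.27% (Ppp1r1b, L6 CT).

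A mitochondrial limit of 1% gave -1.57 for Drd2 in excitatory against inhibitory nuclei (not called), 1.15 for Drd1 in L6 IT, 2.16 and 7.38 for Drd1 and Drd2 in medium spiny nuclei (called), 2.23 for Drd1 between subtypes, and Drd1 at 23.5 CPM in L6b and 29.7 CPM in medium spiny nuclei. A limit of 20% gave 7.25 for Drd2 in medium spiny nuclei (called) and -0.46 for Drd1 in L4/5 IT, which was also not called with doublets kept (-0.61) or resolution 0.5 (-0.34). The cause was not tested. With no UMI minimum Drd1 between subtypes was called at 5.13.

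Leaving out each library gave -1.98 to -1.68 for Drd2 in excitatory against inhibitory nuclei, 0.38 to 1.14 for Drd1 in cortical neurons against glia (called without library 2), 0.74 to 1.01 for Drd1 by reporter in L6 IT (called without library 1), 2.44 to 2.70 for Drd1 and 7.17 to 7.47 for Drd2 in medium spiny nuclei (both called without library 4), and 32.8% to 44.2% for the Drd1 share in L6b (highest without library 4). No paired analysis was possible because the barcode endings carry neither a sample nor a replicate number. Depth limits Drd3, Drd4 and Drd5, with 91, 8 and 77 UMIs, in every comparison.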

Other observations

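Indirect-type nuclei formed 2 larger subclusters that differed in other genes than Drd2. Subcluster 1, of 60 nuclei led by Penk and Nts, had Drd2 at 328 CPM, and subcluster 4, of 58 nuclei led by Ankk1 and Slit2, had it at 388 CPM, with overlapping intervals. Ankk1 is the nearest gene to Drd2, 7017 bases away on the opposite strand, and had 63 UMIs over all barcodes. Subcluster 1 held 41, 7 and 12 nuclei of libraries 1 to 3 and subcluster 4 held 36, 21 and 1, so the 2 were not drawn evenly from the libraries.

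The 18 medium spiny nuclei of no subtype were the deepest, with a median of 12968.5 UMIs against 6703 over the class. They held Drd1 at 24.6 CPM, Drd2 at 109 CPM and Ppp1r1b at 31.6 CPM. Their summed medium spiny markers were at 2824 CPM, against 4854 CPM over the class.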
